A study of Mus musculus with 10 samples.

Results

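Accessibility was examined at 10 genes of epithelial junctions and cell polarity in purified intestinal epithelial cells (IECs) of WT mice and of KO mice lacking Zip14. The genes were listed by name, without a rule on their values but with earlier results of these data known, and comprise 5 claudins (Cldn2, Cldn3, Cldn4, Cldn7 and Cldn15), Tjp1, Ocln, Cdh1, Epcam and Crb3. Their members are all peaks that carry one of the 10 Ensembl gene IDs, which are 70 of 246479 peaks and 10 of 44580 gene IDs. Zip14 (Slc39a14) is a metal ion transporter that carries zinc into cells, and the KO mice lack it in every tissue from conception, so a difference in IECs need not start in IECs. The labels name the duodenum as the tissue, and the study's methods describe IECs taken from duodenum and upper jejunum. There was 1 library per mouse, 5 of them WT (numbered WT1 to WT5) and 5 KO (numbered KO6 to KO10), which is fewer than the legend of the study's ATAC-seq figure gives. Both genotypes were bred onto C57BL/6. The study's methods describe young adults, female unless stated otherwise, and the labels give neither age nor sex. No treatment or diet change was applied in these groups. In ATAC-seq a transposase cuts DNA that is free of nucleosomes, so that reads over a peak rise with accessibility.

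Tight junctions close the gap between neighbouring epithelial cells near their apical side, and claudins are the membrane proteins that set what passes through it. Claudin-2 and claudin-15 form pores for small cations and water, whereas claudin-3 and claudin-4 are known mostly as sealing claudins, and claudin-7 lies largely along the lateral membrane, where it binds EpCAM. Occludin spans the membrane beside the claudins, ZO-1 (Tjp1) ties them to actin inside the cell, E-cadherin (Cdh1) holds cells together in adherens junctions below, and Crb3 belongs to the Crumbs complex that marks the apical domain. In the small intestine, claudin-2 is known from the crypts and claudin-15 from crypts and villi of the adult.

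Total counts in peaks ranged from 5202949 to 15775481 in WT mice and from 4731176 to 6094983 in KO mice, and the single strongest peak took 5.66% to 14.36% of them. Peaks are listed by gene ID without coordinates, and their order along the chromosome was inferred from running numbers, so a peak is named here by its rank within its gene and could not be called a promoter or an enhancer. Slc39a14 was not paired with a gene ID in the tables used here, so the deletion was not checked in these libraries. Cells were stained for EpCAM for the sort, which makes Epcam a gene of the gate as well as a member. All 10 genes were covered in every mouse, with at least 85 summed counts each, including the epithelial markers Epcam (1419 to 6076 counts) and Cdh1 (620 to 2739 counts). In a mixed cell population, fewer cells of a type and lower accessibility per cell cannot be told apart. The mice are separate animals, but litters are not given.

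The sequences upstream of the genes on which the comparison turned are shown first. RefSeq windows for GRCm38.p6, the assembly behind mm10, were matched by symbol for 9 of the 10 genes (12 windows, since a gene can have more than 1 start), and Cdh1 had no window. The 250 bases before the first listed start are given for the 3 claudins whose WT and KO values did not overlap (Cldn2, chrX:139800558-139800807, plus strand, Cldn15, chr5:136967619-136967868, plus strand, and Cldn7, chr11:69964529-69964778, plus strand), and for Cldn4 (chr5:134946935-134947184, minus strand), whose values overlapped. They read 5′ to 3′ on the gene's strand, and capitals mark every match, on either strand, to GGGCGG (Sp1), CAGGTG (an E-box bound by Snail-type factors), TGCACNC or TGCGCNC (core of the metal response element bound by the zinc sensor MTF-1), TTTATNG (CDX) or TATAAA (the core promoter box that binds TBP).
Cldn2: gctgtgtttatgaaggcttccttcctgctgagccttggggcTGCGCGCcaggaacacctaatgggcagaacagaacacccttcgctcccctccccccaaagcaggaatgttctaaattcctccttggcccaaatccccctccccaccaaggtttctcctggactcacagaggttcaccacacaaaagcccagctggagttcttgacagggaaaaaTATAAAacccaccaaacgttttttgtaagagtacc
Cldn15: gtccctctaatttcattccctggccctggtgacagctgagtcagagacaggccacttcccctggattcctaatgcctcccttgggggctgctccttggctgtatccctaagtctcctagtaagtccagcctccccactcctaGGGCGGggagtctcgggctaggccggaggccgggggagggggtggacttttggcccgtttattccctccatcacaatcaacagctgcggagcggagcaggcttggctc
Cldn7: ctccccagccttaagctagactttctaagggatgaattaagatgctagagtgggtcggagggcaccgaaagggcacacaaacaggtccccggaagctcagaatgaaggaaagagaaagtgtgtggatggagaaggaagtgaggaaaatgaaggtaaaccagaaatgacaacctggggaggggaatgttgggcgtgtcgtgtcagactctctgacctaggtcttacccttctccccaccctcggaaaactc
Cldn4: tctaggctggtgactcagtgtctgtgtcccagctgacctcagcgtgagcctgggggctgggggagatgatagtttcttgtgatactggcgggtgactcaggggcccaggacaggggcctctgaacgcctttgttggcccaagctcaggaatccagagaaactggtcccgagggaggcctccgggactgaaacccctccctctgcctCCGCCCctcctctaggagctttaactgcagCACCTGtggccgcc
The Cldn2 window held a TATAAA from 35 to 30 bases before the start, a motif found in 12.4% of 32851 windows of this length and in 1 of the 12 windows of these genes. It also held a metal response element core (209 to 203 bases before the start), which is present in 21.4% of all windows and in 4 of the 12. The Cldn7 window shown held no match to any motif searched. The Sp1 motif was present in 10 of the 12 windows against 32.7% of all, and was absent from the windows shown for Cldn2 and Cldn7. The second Cldn7 window, not shown, held it from 6 to 1 bases before its start and held 2 E-boxes. The windows of these genes were rich in G and C, with a median of 61.4% against 52.4% for all windows and 10 of the 12 above the latter, and the counts of GC-rich motifs were not adjusted for this. The 2 windows of Crb3 overlap for most of their length, so that their shared matches count in both. The E-box was present in 6 of 12 against 17.2%, among them that of Cldn4. HNF4 (CAAAGTCCA), HNF1 (GTTAAT) and GRHL (AACNGGTT) motifs were also searched, and no member window held one. No 2 matches overlap in the sequences shown. These matches are letters in a window, and which peak, if any, lies over a window is not known.

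The first comparison asked whether the accessibility of each gene, as the summed counts of all its peaks, differed between KO and WT mice. Values are CPM, counts scaled to library size, after TMM scaling, and log2 fold changes are KO against WT from edgeR's quasi-likelihood test over 36715 gene IDs, with Benjamini-Hochberg adjustment over all of them. Cldn2 was the gene that passed an adjusted p of 0.05. Its accessibility was 26.6% lower in KO mice, and that of Cldn15 and Cldn7 was lower by estimates of 20.1% and 15% without passing. The sealing claudins Cldn3 and Cldn4, Tjp1, Ocln, Cdh1, Epcam and Crb3 did not pass either. The plot of summed counts by mouse shows all 10 genes.

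**Figure D1:**
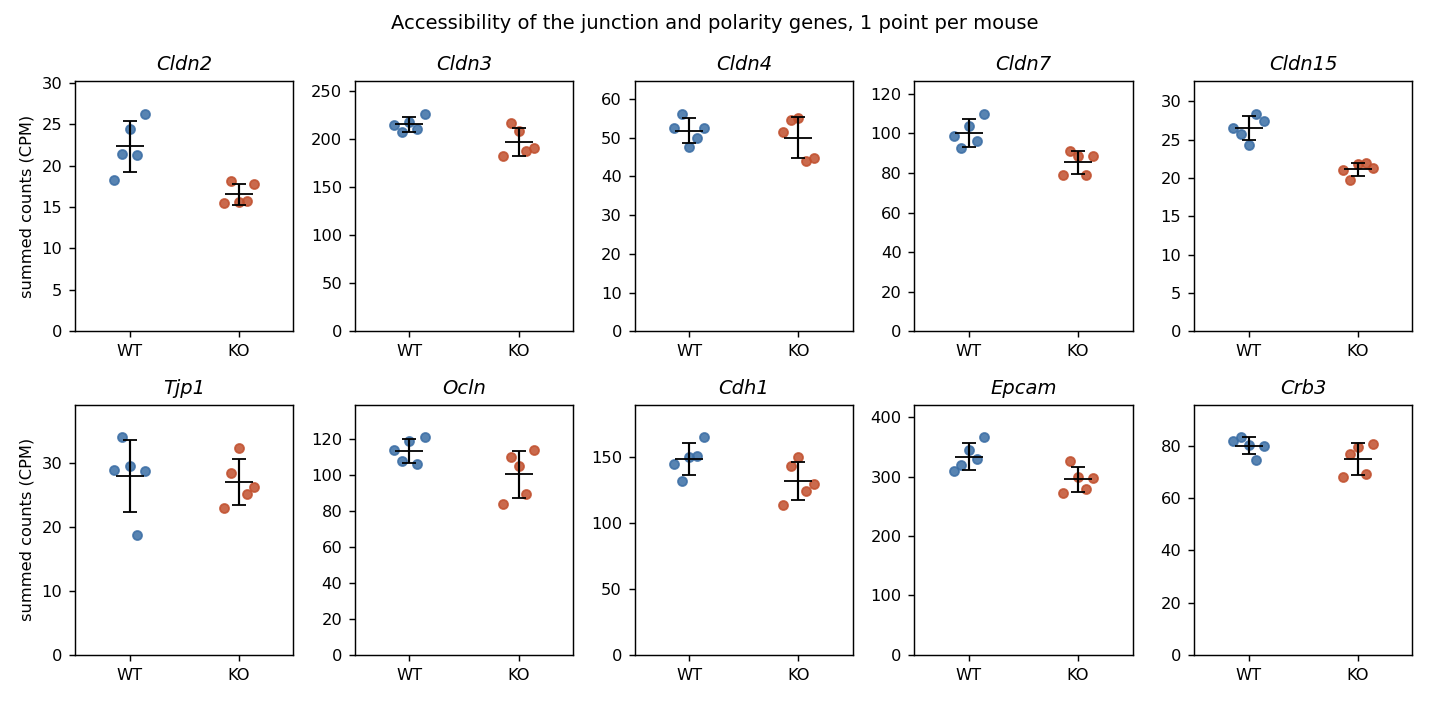
Summed counts of all peaks of each gene (y axis, CPM after TMM scaling, from 0) in WT and KO mice, with 1 point per mouse and the mean and SD as bars. For Cldn2, Cldn7 and Cldn15 the 5 KO mice lie below all 5 WT mice, and for the other genes the genotypes overlap.

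Cldn2 (ENSMUSG00000047230, chromosome X), the cation pore of the crypt, had 18.3, 21.4, 24.5, 21.3 and 26.3 CPM in WT1 to WT5 and 15.5, 18.1, 15.6, 15.8 and 17.8 CPM in KO6 to KO10. Every KO mouse lay below every WT mouse, although WT1 and KO7 nearly met. The means were 22.4 ± 3.12 and 16.5 ± 1.27 CPM (SD, n = 5 each), with a log2 fold change of -0.45 (SE 0.11, edgeR adjusted p = 0.0417). The exact two-sided permutation test on log2 CPM gave an unadjusted p = 0.00794, the smallest that 5 mice against 5 allow. The call was lost without WT3, WT4, WT5, KO6, KO8, KO9 or KO10 (edgeR adjusted p from 0.0583 to 0.136). With all mice it was also lost with total counts (adjusted p = 0.0542), 1 surrogate variable (0.0836) and the strongest peak in place of the sum (0.063), all by edgeR. The log2 fold change stayed between -0.50 and -0.37 whichever mouse was left out.

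Cldn15 (ENSMUSG00000001739, chromosome 5), the other pore-forming claudin here, had 26.5, 25.8, 24.3, 28.4 and 27.4 CPM in WT1 to WT5 and 21.0, 19.8, 21.8, 21.9 and 21.3 CPM in KO6 to KO10. The genotypes were separate, with a gap wider than the whole range of the KO mice. The log2 fold change was -0.32 (SE 0.09), with an adjusted p of 0.0504 by edgeR, just outside the threshold, and an unadjusted p = 0.00794 by the exact permutation test. The adjusted p by edgeR was 0.0754 with total counts, 0.127 with 1 surrogate variable and 0.0385 without WT2. By DESeq2 it was 0.0463.

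Cldn7 (ENSMUSG00000018569, chromosome 11), the lateral claudin, had 98.8, 92.4, 104, 96.1 and 110 CPM in WT1 to WT5 and 79.1, 91.3, 88.7, 79.0 and 88.7 CPM in KO6 to KO10. Its groups also did not overlap, but WT2 and KO7 lay within about 1 CPM of each other. The log2 fold change was -0.23 (SE 0.076, edgeR adjusted p = 0.071, unadjusted exact permutation p = 0.00794). By DESeq2, and by edgeR without WT2, Cldn2, Cldn7 and Cldn15 all passed, with adjusted p of 0.0263, 0.0492 and 0.0463 by DESeq2. More gene IDs were called under both settings, 5.93% of all by DESeq2 and 8.87% without WT2.

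Across the set, 1 of the 10 genes was called, against 3.91% of all gene IDs tested in either direction and 1.01% called as lower in KO mice. Complete separation with KO below WT was found for 3 of 10, against 2.84% of all. All 10 log2 fold changes were below 0, against 50.5% of all, and 4 of the 10 genes were lower at an unadjusted p under 0.05 by edgeR, against 11.8%, while 0 were higher, against 15.7%. The level of the gene moves this background. Strong gene IDs were lower in KO mice more often than weak ones, and 7 of the 10 genes belong to the 25% of gene IDs with the highest mean CPM. Among these strong gene IDs 83.1% of gene IDs had a log2 fold change below 0, 26.5% were lower at an unadjusted p under 0.05, and 6.86% were separated. Of the 7 genes in this class, Cldn7 and Epcam were lower at that p, and Cldn7 alone was separated. Cldn2, Cldn15 and Tjp1 are not among them and belong to the next 25% by mean CPM. In that class 61.7% of gene IDs had a log2 fold change below 0, 14.8% were lower at an unadjusted p under 0.05, and 3.4% were separated. Cldn2 and Cldn15 were both lower at that p and separated, and Tjp1 was neither. The median log2 fold change was -0.17 for the 10 genes, -0.120 for the strong gene IDs, -0.066 for the next class and -0.004 for all. For the 25% of gene IDs with the lowest mean CPM it was 0.299. A negative sign alone was therefore near its background among strong gene IDs.

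The direction of the weaker members also depended on scaling. With loess offsets, which remove a trend with abundance, Cldn4, Tjp1 and Crb3 turned to 0.07, 0.04 and 0.02, and the median of the 10 genes was -0.07. With the library sizes of the tested peaks, an alternative added after the values were seen, the median of all gene IDs moved to 0.082, and Cldn4 and Tjp1 turned to 0.04 each. Epcam had -0.10 under both alternatives, Ocln -0.07 and -0.10, and Cdh1 -0.07 and -0.09. Cldn3 had -0.04 under both, and Crb3 had -0.01 with the library sizes of the tested peaks. Cldn2 had -0.40 and -0.36, Cldn15 -0.25 and -0.24, and Cldn7 -0.12 and -0.15, and none of them passed an adjusted p of 0.05 by edgeR (0.0562 to 0.253). The plot of fold changes under 3 scalings sets these side by side.

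**Figure D2:**
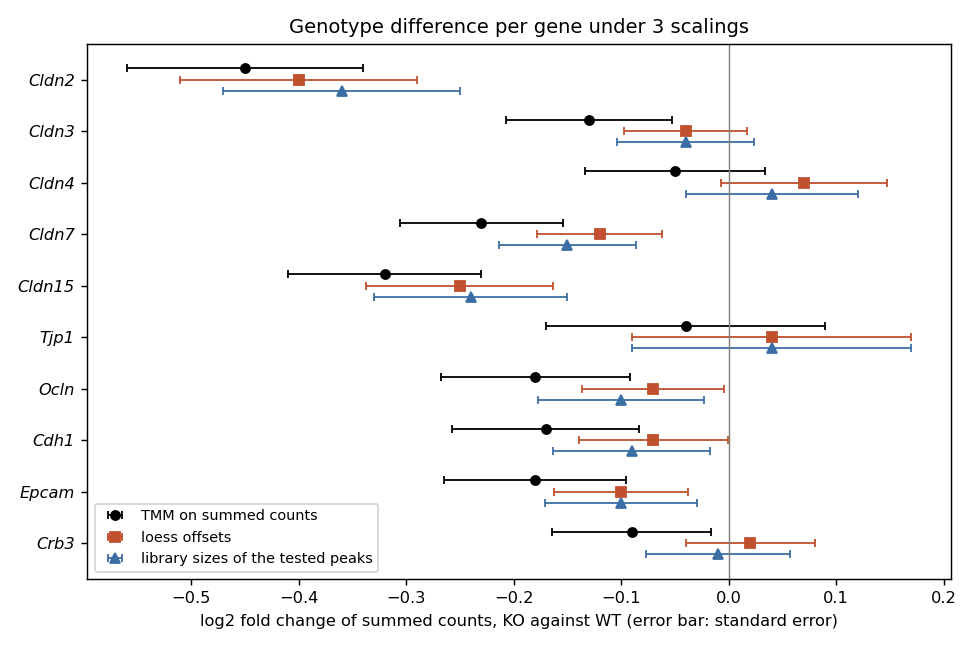
Log2 fold change of summed counts in KO against WT mice (x axis) for each gene (y axis) with TMM scaling, loess offsets and library sizes of the tested peaks, with standard errors as bars. Cldn2, Cldn15, Cldn7, Cldn3, Ocln, Cdh1 and Epcam lie below 0 under all 3 scalings, whereas Cldn4 and Tjp1 change side under both alternatives and Crb3 under loess offsets.

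The sealing claudins Cldn3 and Cldn4 lie within chr5:134945123-134987476, on the chromosome of Cldn15, and no peak of another gene ID was listed between theirs. Cldn4 (ENSMUSG00000047501) had 52.4, 56.2, 47.7, 50 and 52.6 CPM in WT1 to WT5 and 51.5, 54.6, 55.0, 44.0 and 44.8 CPM in KO6 to KO10. The KO mice divided into 3 at the WT level and 2 below it. The log2 fold change was -0.05 (SE 0.084, edgeR adjusted p = 0.734). Cldn3 (ENSMUSG00000070473) ranged from 207 to 226 CPM in WT mice, with a median of 214, and from 182 to 216 CPM in KO mice, with a median of 190. Of its KO mice, 3 lay below all WT mice, and its log2 fold change of -0.13 (SE 0.077) had an edgeR adjusted p of 0.285.

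Counts of the pore-forming claudins were also set against those of the other claudins within each mouse, which needs no scaling between mice. Cldn2 and Cldn15 together took 10.9, 11.7, 11.7, 12.3 and 12.2% of the counts of the 5 claudins in WT1 to WT5. In KO6 to KO10 they took 10.4, 9.46, 9.62, 10.9 and 10.8%. All KO mice lay at or below the lowest WT mouse, WT1. This share was formed after the values of its genes were known and was not tested.

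Of the scaffold and other junction genes, Tjp1 (ENSMUSG00000030516), the ZO-1 scaffold, differed least between genotypes and varied most between mice. It had 28.9, 34.0, 29.6, 18.7 and 28.7 CPM in WT1 to WT5 and 22.9, 28.4, 32.3, 25.2 and 26.2 CPM in KO6 to KO10. WT4 alone fell below all other mice, and the log2 fold change was -0.04 (SE 0.13, edgeR adjusted p = 0.846). Without WT4 the difference was -0.16, and without WT2 it was 0.02.

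Ocln (ENSMUSG00000021638) ranged from 106 to 121 CPM in WT mice and from 84.1 to 114 CPM in KO mice, with KO6 and KO9 lowest. Its log2 fold change was -0.18 (SE 0.088, edgeR adjusted p = 0.191). Cdh1 (ENSMUSG00000000303) ranged from 132 to 165 CPM in WT mice and from 114 to 150 CPM in KO mice, with a log2 fold change of -0.17 (SE 0.087, edgeR adjusted p = 0.208). In both genes 3 KO mice lay below all WT mice, and the other two lay among them.

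Epcam (ENSMUSG00000045394), the marker used in the sort, had 310, 320, 344, 329 and 366 CPM in WT1 to WT5 and 273, 327, 300, 279 and 297 CPM in KO6 to KO10. All KO mice but KO7 lay below the lowest WT mouse. The log2 fold change was -0.18 (SE 0.085) with an unadjusted p of 0.0496 and an adjusted p of 0.181 by edgeR. The part of cell composition in these differences was not tested. Crb3 (ENSMUSG00000044279), the apical polarity gene, ranged from 74.7 to 83.2 CPM in WT mice and from 68.1 to 80.8 CPM in KO mice, and its log2 fold change was -0.09 (SE 0.074, edgeR adjusted p = 0.404).

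The second comparison asked which peaks within the genes differed. The genes held 28 (Epcam), 13 (Cdh1), 8 (Cldn3), 5 (Ocln), 4 (Tjp1), 3 (Cldn2 and Cldn4 each) and 2 peaks (Cldn7, Cldn15 and Crb3 each), and the median gene ID had 4. Of the 70 peaks, 58 passed the filter on low counts. The 12 that did not were 7 of Epcam, 3 of Tjp1, 1 of Cdh1 and 1 of Cldn2. No peak of these genes passed an adjusted p of 0.05 by edgeR, nor did any of the 81022 peaks tested (0%). By DESeq2 562 of all peaks passed, and 0 of these were peaks of the 10 genes. At an unadjusted p under 0.05, 6 of the 58 peaks were lower in KO mice, against 5.65% of all peaks tested, and 0 were higher, against 10.4%. Of the 58, 42 had a log2 fold change below 0 and their median was -0.14. For all peaks the share below 0 was 50.4%, and it was 70.3% among the 25% of peaks with the highest mean CPM, which include 32 of the 58. Of these strong peaks 11% were lower at an unadjusted p under 0.05.

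**Figure D3:**
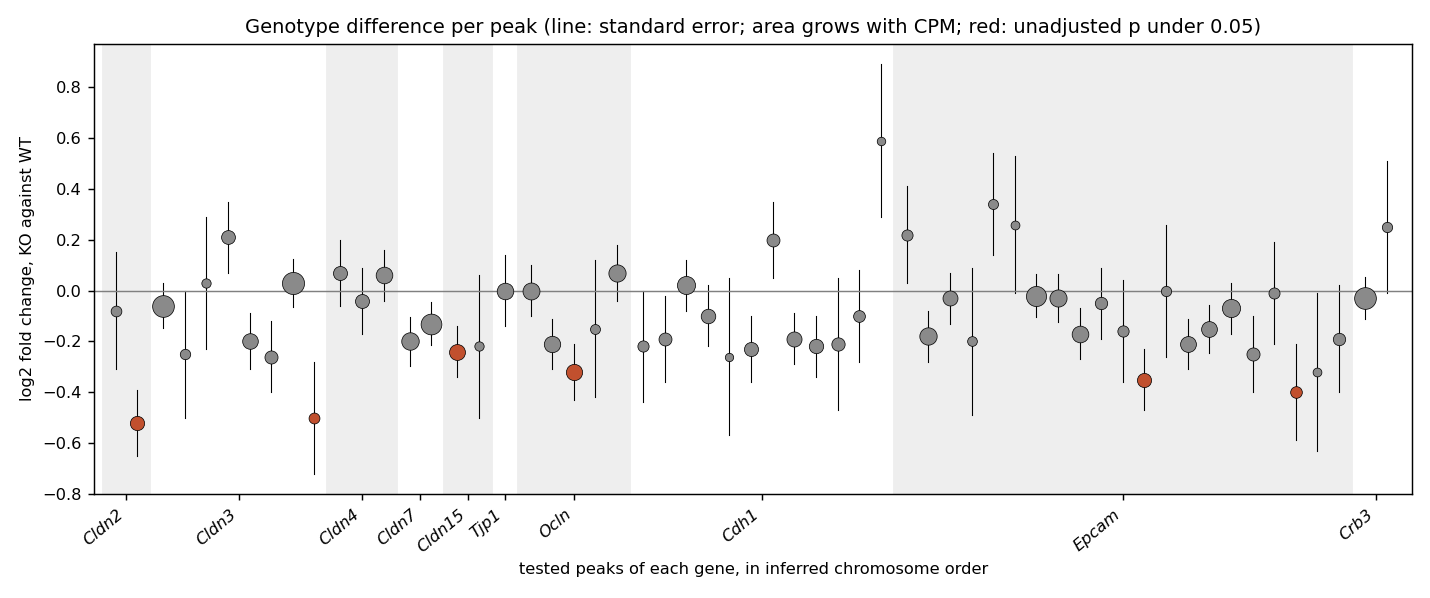
Log2 fold change in KO against WT mice (y axis) of each of the 58 tested peaks, grouped by gene and in inferred chromosome order within a gene (x axis), with standard errors as lines, point area growing with mean CPM and red for an unadjusted p under 0.05. The 6 red peaks lie between -0.52 and -0.24, and most of the large points, the strongest peaks, lie near 0.

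Of the 3 peaks of Cldn2, the strongest, peak 3, had 13.4, 18.0, 18.7, 19.3 and 20.3 CPM in WT1 to WT5 and 12.5, 11.9, 12.2, 12.3 and 14.2 CPM in KO6 to KO10. WT1 lay among the KO mice, and the other WT mice lay well above them. The log2 fold change was -0.52 (SE 0.13, unadjusted p = 6.08e-04 and adjusted p = 0.078 by edgeR). It had the lowest p of the 58 peaks. Peak 1 of Cldn2 had 4.92 ± 1.52 CPM in WT and 4.83 ± 1.03 CPM in KO mice (SD, n = 5 each), a log2 fold change of -0.08 (SE 0.23), and the difference between the peaks was not tested at this level. Peak 2 did not pass the filter.

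Cldn15 held most of its counts in peak 1, with 24.5, 24.7, 23.6, 29.0 and 25.6 CPM in WT1 to WT5 and 23.2, 18.6, 21.3, 23.3 and 21.7 CPM in KO6 to KO10. It was the 1 tested peak of these genes at which every KO mouse lay below every WT mouse, against 1.21% of all peaks, although WT3 and KO9 differed by less than 1 CPM. Its log2 fold change was -0.24 (SE 0.1, adjusted p = 0.248 by edgeR). Both peaks of Cldn7 were lower by their estimates, at -0.20 (SE 0.096) for peak 1 and -0.13 (SE 0.086) for peak 2, and neither passed an unadjusted p of 0.05 by edgeR. The fits of peaks and of sums scale the libraries differently, and with the library sizes of the tested peaks the sum of Cldn15 had the same -0.24 as its peak 1. Values of the strongest peaks of 4 claudins are plotted by mouse.

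**Figure D4:**
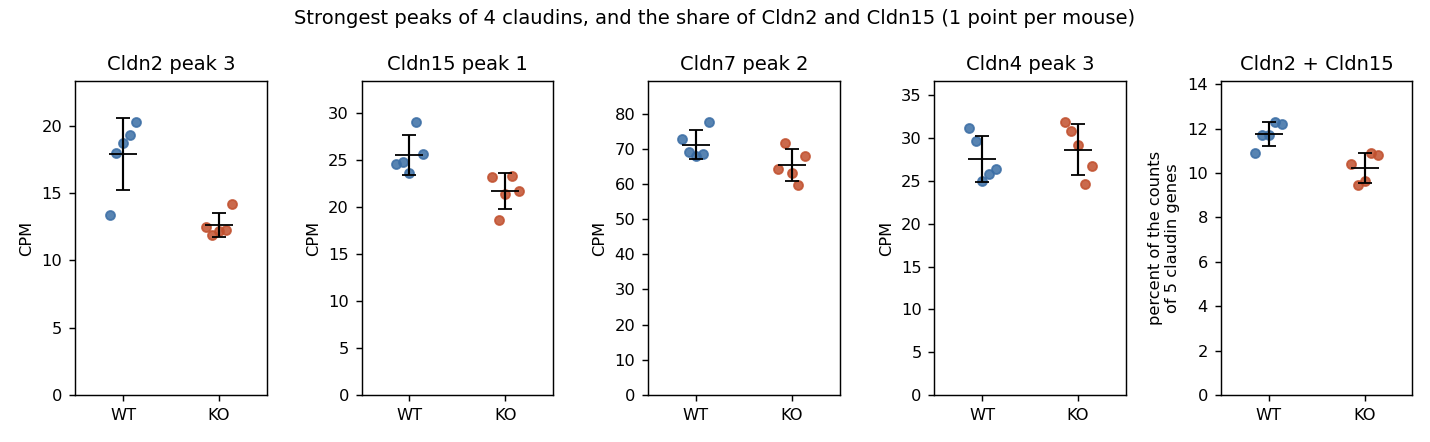
The first 4 panels show CPM (y axis, from 0) of the strongest peak of Cldn2, Cldn15, Cldn7 and Cldn4, and the last shows the percent of the counts of 5 claudin genes that fell to Cldn2 and Cldn15, with 1 point per mouse and the mean and SD as bars. WT1 lies among the KO mice for Cldn2 peak 3, all KO mice lie below the WT mice for Cldn15 peak 1, and the genotypes overlap for Cldn7 peak 2 and Cldn4 peak 3.

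The other 4 peaks at an unadjusted p under 0.05 were weaker peaks of genes that did not pass as a whole. Ocln peak 3 had 26.0, 29.4, 29.2, 29.0 and 28.7 CPM in WT1 to WT5 and 18.0, 22.6, 25.8, 20.9 and 26.7 CPM in KO6 to KO10, with a log2 fold change of -0.32 (SE 0.11). All KO mice but KO10 lay below the lowest WT mouse, WT1. The remaining peaks were Epcam peak 16 at -0.35 (SE 0.12), Epcam peak 23 at -0.40 (SE 0.19) and Cldn3 peak 8 at -0.50 (SE 0.22), with adjusted p from 0.163 to 0.304 by edgeR. Epcam peak 23 overlapped between genotypes (exact permutation p = 0.127) and had -0.20 with 1 surrogate variable and -0.27 without WT4. Cldn3 peak 8 overlapped too (exact permutation p = 0.0873).

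The strongest peak of the other genes differed little between genotypes. Its log2 fold change was 0.07 (SE 0.11) for Ocln peak 5, 0.06 (SE 0.1) for Cldn4 peak 3 and 0.03 (SE 0.093) for Cldn3 peak 7. It was 0.02 (SE 0.1) for Cdh1 peak 3, 0.00 (SE 0.14) for Tjp1 peak 1, -0.02 (SE 0.084) for Epcam peak 10 and -0.03 (SE 0.083) for Crb3 peak 1. Epcam peak 10, for example, had 58.4, 55.8, 64.0, 59.8 and 63.0 CPM in WT1 to WT5 and 54.5, 61.0, 61.2, 58.4 and 62.8 CPM in KO6 to KO10, and of the KO mice KO6 alone lay outside the WT range. The highest log2 fold change of the 58 peaks was 0.59 (SE 0.3, unadjusted p = 0.063 by edgeR) at Cdh1 peak 13, a weak peak with 5 to 28 counts per mouse.

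The share of a gene's counts that fell in its strongest peak does not depend on the scaling of libraries, and it was compared by exact two-sided permutation over 16304 gene IDs. For Cldn2 the share was 67.6, 76.2, 72.4, 82.8 and 73.7% in WT1 to WT5 and 68.5, 59.4, 70.7, 67.0 and 69.4% in KO6 to KO10. The KO mice were lower except that WT1 lay among them, and the means were 74.5 ± 5.55 and 67.0 ± 4.46% (SD, n = 5 each, exact permutation p = 0.0397, adjusted p = 0.365). For Ocln the share of peak 5 was 25.8 ± 2.13% in WT and 28.9 ± 2.04% in KO mice (SD, n = 5 each, exact permutation p = 0.0476, adjusted p = 0.38). These were 2 of 10 genes at an unadjusted p under 0.05, against 12.5% of all gene IDs in the test, and neither passed the adjustment. For 6 of the 10 genes the share was higher in KO mice, against 34% of all. Over all gene IDs in the test the median difference was -1.199 percentage points, KO minus WT. Whether it follows the share of a library's counts in strong peaks was not tested.

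The 40 tested peaks nearest to each gene in the inferred order, 20 on each side, were used as its surroundings. They had a median log2 fold change of -0.06 around Cldn2, -0.04 around Cldn15 and -0.11 around Cldn7, against medians of -0.30, -0.23 and -0.16 for the genes' own tested peaks. These 3 genes had 2 tested peaks each. The surroundings of Cldn7 thus lay close to Cldn7 itself. Gaps of similar size were found at genes whose groups overlapped, with medians of 0.04 around and -0.13 within Cldn3, -0.00 and -0.19 for Cdh1, and 0.04 and -0.15 for Epcam. For Ocln they were -0.09 and -0.15. The own peaks of Cldn4 (0.06 against 0.02 around) and Crb3 (0.11 against 0.10) did not lie lower, and the 1 tested peak of Tjp1 had 0.00 against 0.10. Of the 40 peaks around Cldn2, 4 had an unadjusted p under 0.05 by edgeR, 2 of them lower and 2 higher in KO mice. The surrounding peaks were not matched to a gene's own peaks in strength. Over all tested peaks the median log2 fold change was -0.078 in the 25% with the highest mean CPM. In the 25% with the lowest it was 0.204. The difference between a gene and its surroundings was not tested.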

How the data were processed

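ATAC-seq libraries of purified IECs from 5 WT and 5 KO mice were analysed, grouped by the genotype in the labels. The authors deposited raw counts per peak for 1 peak set common to all mice, without normalization, on mm10 per the submitters' notes. They also deposited a normalized signal per mouse, the count divided by 1 factor, which was not tested. Aligner, peak caller, duplicate and transposase-offset handling, and the rule assigning peaks to genes are not given in the sources used here, and how they shaped the counts is unknown. Of 246501 entries, 22 held no value, and 594 peaks without a gene ID (0.612% to 0.965% of counts) stayed out of sums.

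Counts per peak and summed per gene ID were filtered with filterByExpr (81022 peaks and 36715 gene IDs kept), scaled by TMM and fitted in R 4.3.3 with the quasi-likelihood functions of edgeR 4.0.16 (glmQLFit and glmQLFTest). Genotype was the single term. Values per mouse were compared over all 252 labelings of the mice, using log2 CPM with a prior count of 2. The share in the strongest peak was tested for gene IDs with at least 50 counts in every mouse. Tables used Python 3.11.15, pandas 2.3.3 and scipy 1.17.1. The fits were tested on simulated data first, with known changes of 1.25, 1.5 and 2 fold. At an adjusted p under 0.05 they recovered 1.51%, 30.8% and 85.7% of the changed gene IDs. For changed peaks the shares were 0%, 9.68% and 54.1%. Failing to pass therefore does not show that a gene or peak is unchanged. Alternatives were DESeq2 1.42.0, total counts, loess offsets (span 0.3), 2 other filters, 1 surrogate variable (sva 3.50.0), library sizes without the highest peak, the strongest peak per gene, a prior count of 0.5, the strongest peak picked on WT mice, each mouse left out and, added after seeing the data, library sizes of the tested peaks. All members and all their peaks at an unadjusted p under 0.05 or of highest mean CPM were named by rule, and other peaks after their values were seen. The members, lists and tests were chosen with earlier results of these data known. Further lists of junction, polarity, brush border and cell type marker genes were not run, because the tables used here do not pair their symbols with Ensembl IDs.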

Additional observations from a re-analysis of the deposited data

Results flagged for a closer look

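For the 10 genes, their shares in the strongest peak and the 14 peaks named by rule, 68 groups of 5 mice were examined for a mouse apart from the others by more than Dixon's 95% limit of 0.71 of the range, and 4 were found. Chance gives about 1 such group in 20. Tjp1 had a log2 CPM of 4.25 in WT4, below the other WT mice. Ocln peak 3 had 26 CPM in WT1, below the other WT mice but above 4 of the 5 KO mice. Cldn2 peak 3 had 14.2 CPM in KO10, above the other KO mice. Epcam peak 23 had 5.62 CPM in KO9, below the other KO mice, which lay close together.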

How the results depend on the processing

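No paired analysis was possible because no number is common to a WT and a KO mouse. The number of these genes called from summed counts was 1, and it became 3 by DESeq2, 0 with total counts, loess offsets, 1 surrogate variable, the strongest peak per gene or library sizes of the tested peaks, and 0 to 3 with a mouse left out. It stayed at 1 with both other filters and without the highest peak in the library sizes. Over all gene IDs, 369 of 1434 calls were lower in KO mice, against 727 of 2177 by DESeq2, 61 of 305 with loess offsets and 100 of 2196 with library sizes of the tested peaks. With mice left out these calls were 0 when WT3, WT5, KO6, KO9 or KO10 was dropped and 3311 when WT2 was. Log2 fold changes of summed counts turned to 0.07 for Cldn4, 0.04 for Tjp1 and 0.02 for Crb3 with loess offsets, to 0.04 for Cldn4 and Tjp1 each with library sizes of the tested peaks, and, taking the strongest peak for the gene, to 0.04 for Cldn3, 0.07 for Cldn4, 0.01 for Tjp1, 0.08 for Ocln and 0.03 for Cdh1. With a mouse left out they ranged from -0.09 to 0.0025 for Cldn4 and from -0.16 to 0.02 for Tjp1. The cause was not tested.

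The number of peaks of these genes called was 0, and 1 (Cldn2 peak 3) with no filter on low counts, and 0 to 1 with a mouse left out (1 without WT2). Over all peaks the calls were 0, and they were 394 of 246479 with no filter, 1880 of 85778 without WT2, and 859 of 54410 with at least 10 counts in every mouse, where none was a peak of these genes. With total counts the median log2 fold change over all peaks moved from -0.003 to -0.063. Peaks near 0 changed sign. With total counts Cldn3 peak 7 had -0.03, Tjp1 peak 1 -0.06 and Cdh1 peak 3 -0.04, and Tjp1 peak 1 had -0.01 by DESeq2 and -0.0002 with library sizes without the highest peak. With no filter the values were -0.08 for Ocln peak 5, -0.10 for Cldn4 peak 3, -0.13 for Cldn3 peak 7, -0.15 for Tjp1 peak 1 and -0.14 for Cdh1 peak 3. With 1 surrogate variable they were -0.05 for Cldn3 peak 7, -0.16 for Tjp1 peak 1 and -0.02 for Cdh1 peak 3. Epcam peak 10 turned to 0.01 with loess offsets and with at least 10 counts in every mouse, as did Crb3 peak 1 with the latter. With a mouse left out the ranges were -0.05 to 0.01 for Epcam peak 10, -0.02 to 0.07 for Cldn3 peak 7, -0.12 to 0.07 for Tjp1 peak 1 and -0.03 to 0.07 for Cdh1 peak 3. The number of genes with a share in the strongest peak at an unadjusted p under 0.05 was 2 and ranged from 0 to 1 with a mouse left out, and the difference of the Cldn15 share ranged from -1.16 to 1.05 points. The other planned lists were not run.

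The KO libraries held fewer counts than most WT libraries, which limits the precision of weak peaks such as Cdh1 peak 13 or Cldn15 peak 2. For Ocln, Cdh1 and Epcam the differences of summed counts shrank from between -0.18 and -0.17 to between -0.10 and -0.07 with loess offsets or library sizes of the tested peaks, and neither a difference nor its absence was shown. Peak coordinates, cell composition, litters and sequencing batches were not used here.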
